A study of Homo sapiens with 12 samples.

Results

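The regions described here are the 3816 CTCF regions that were found in cells lacking both WAPL and SCC4 and in none of the other genotypes of the study, of 53945 CTCF regions in all, or 7.07%. They were chosen by merging the CTCF peak lists of the 4 genotypes wherever intervals overlapped by at least 1 bp, and by keeping every merged region whose peak came from the double deletion alone. Each of them held 1 peak, and together they made up 8.02% of the 47608 CTCF peaks of the ΔWAPL/ΔSCC4 list. That list was the longest, against 43050 CTCF peaks in wild-type, 45798 in ΔWAPL and 37625 in ΔSCC4 cells. For comparison, 1624 regions were found in wild-type cells only, 2709 in ΔWAPL cells only and 550 in ΔSCC4 cells only, whereas 34622 were found in all 4 genotypes and are called constant regions below.

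Chromatin immunoprecipitation followed by sequencing (ChIP-seq) was performed in HAP1, a near-haploid human line derived from a chronic myeloid leukaemia, with antibodies against CTCF and against the cohesin subunit SMC1, and with IgG as a control. The groups were wild-type HAP1 cells, ΔWAPL cells (WaplKO_3.3), ΔSCC4 cells (SCC4KO) and ΔWAPL/ΔSCC4 cells (DKO_3.3). CRISPR was used to disrupt WAPL with a Blasticidine cassette and SCC4 with a Puromycin cassette. Cells lacking both descended from ΔWAPL cells in which SCC4 was deleted second, so that ΔWAPL and ΔWAPL/ΔSCC4 cells shared the WAPL deletion and its cassette. Each genotype was measured in 1 library per antibody, and the knockouts were clones. Without replicates, genotypes were not tested against each other, and an effect of the deletions cannot be told apart from a difference between clones or between libraries. Peak lists hold no measure of the deleted genes, and the deletions could not be checked in them.

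CTCF is a zinc-finger protein that binds DNA through a long, asymmetric motif, and it marks boundaries and loop anchors of chromosomes. Cohesin is a ring-shaped complex built around SMC1 and SMC3 that holds DNA loops and accumulates at CTCF sites. SCC4, encoded by MAU2, is a subunit of the SCC2/SCC4 complex that loads cohesin onto DNA and promotes the extension of loops, and WAPL releases cohesin from DNA. The CTCF motif often contains CpG dinucleotides, and methylation of some of these is known to weaken CTCF binding.

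The strongest of the regions show what the underlying DNA looked like. Their sequences were read from the reference genome (GRCh37, the build hg19 of the peak lists), 5′ to 3′ on the strand of the motif match, with the 19 bases that matched a CTCF motif in capitals and up to 20 bases on each side in lower case. The motif was learned from 1000 constant regions, and its most frequent bases are given first. Where a UTR is annotated close by, the matching bases alone are shown, and the region with no match is shown on the plus strand around its summit.
Learned CTCF motif: TGGCCACCAGGGGGCGCTG
chr4:8237884-8238338, coding exon of SH3TC1, match on the plus strand: CAACCGCAAGGCGGAGCTG
chr12:130770559-130770919, intergenic, match on the minus strand: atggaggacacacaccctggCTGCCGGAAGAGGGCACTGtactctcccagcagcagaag
chr20:45401500-45401803, intergenic, match on the plus strand: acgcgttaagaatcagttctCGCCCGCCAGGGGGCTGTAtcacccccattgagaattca
chr21:20097982-20098308, intron of MIR548XHG, no match: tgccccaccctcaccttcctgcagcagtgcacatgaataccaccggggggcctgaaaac
chr17:76848824-76849073, intergenic, match on the minus strand: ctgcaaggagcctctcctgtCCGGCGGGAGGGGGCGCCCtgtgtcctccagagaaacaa
The bases equal to the most frequent base of the motif numbered between 11 and 13 of 19 in these 4 matches, and each match held a CpG. In the region on chromosome 21 the best score was 5.70 bits, just under the limit for a match, so its call as a region with no match is a close one.

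Compared with other CTCF peaks, the regions were weak. The fold enrichment of a peak divides the reads piled up at its summit by those of the background around it, after adding 1 read to both. It ranged from 2.90 to 12.7 with a median of 4.96 (quartiles 4.47 and 5.68), whereas the strongest peak of a constant region had a median of 15.3. The median pileup was 11 reads (range 6 to 43) over a median background of 1.22 reads, and the median −log10 q, the caller's adjusted p-value on a log scale, was 4.79. Ranked by −log10 q in the full ΔWAPL/ΔSCC4 list, the median region stood at percentile 8.07, and the highest at percentile 57.3. In all, 253 regions (6.63%) reached a −log10 q of 10, against 75.7% of the whole list. These values chose the regions and are given as a description. The distribution of regions found only in ΔWAPL cells lay somewhat higher (median 6.06), that of regions found only in wild-type cells close by (median 4.97).

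**Figure D1:**
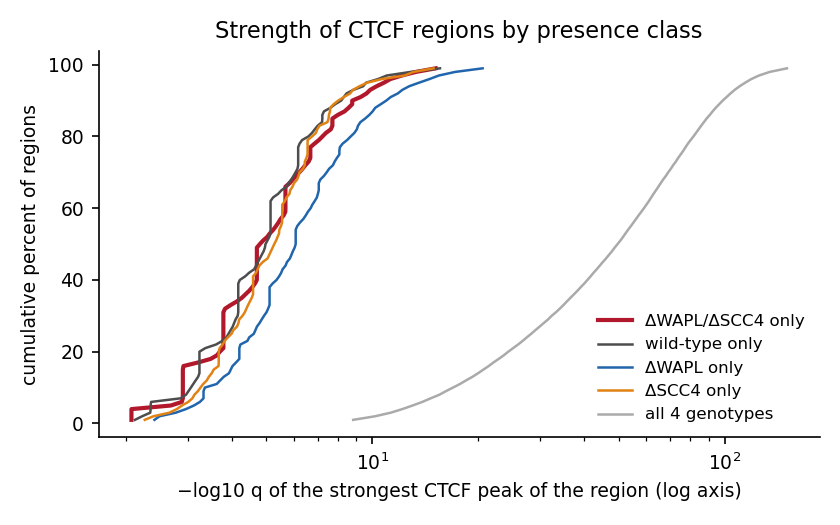
Cumulative percent of regions (vertical axis) by the −log10 q of the strongest CTCF peak of each region (horizontal axis, log scale), for 5 classes of region. The 4 classes found in a single genotype lie together at medians between 4.79 and 6.06, far to the left of the constant regions with a median of 49.7.

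Because most of these peaks lay close to the calling limit, the depth of each library bears on their absence elsewhere. The genome-wide average depth, recovered from the peak values, was 7.09 reads per kb for CTCF in the double deletion, against 6.53 in wild-type, 8.41 in ΔWAPL and 7.42 in ΔSCC4 cells. The lowest −log10 q of a CTCF peak was 1.31 in the double deletion, against 1.36, 1.52 and 1.38 in the same order. For each region, the pileup was scaled to the depth of each other library and divided by the smallest pileup that list would have called at the scaled background. The lowest of the 3 ratios had a median of 1.43. It was at least 1.5 in 1710 regions (44.8%), below 1 in 16 regions, and 4.25 in the strongest. The signal of the other genotypes under their calling limits is not in the lists, and a peak called in 1 list is not shown to be absent from another.

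An SMC1 peak was called at few of these regions in any genotype, and more often at the stronger ones. An SMC1 peak overlapped 41 of them in wild-type cells (1.07%, 95% Wilson interval 0.793 to 1.45), 302 in ΔWAPL cells (7.91%, 7.10 to 8.81), 28 in ΔSCC4 cells (0.734%, 0.508 to 1.06) and 197 in ΔWAPL/ΔSCC4 cells (5.16%, 4.50 to 5.91). Over all CTCF regions the shares were 32.8%, 52.8%, 22.9% and 46.5% in the same order. No SMC1 peak of any genotype was listed at 3372 of the regions. The SMC1 lists used held 18542, 33952, 12779 and 26558 peaks in that order of genotypes. These lengths are not the ones in the study's text, so shares and absences hold for the lists as deposited. The share in the double deletion moved with the thresholds. With stricter SMC1 peaks it was 3.09%. When a CTCF −log10 q of at least 10 was required in all 4 lists, it was 20.5% of 1706 regions. That set is not a part of the 3816, since the threshold adds regions whose weaker peaks in other genotypes it removes. Among the 253 of the 3816 regions that reached that value themselves, the share was 17.8%. Among those 253 the share in ΔWAPL cells was 11.9%, so that the order of both genotypes turned. Intervals cover counting error only, here and throughout. The SMC1 peaks that did occur were weak, with a median fold enrichment of 4.89 in the double deletion (197 peaks, range 3.36 to 8.06) against 6.29 over the whole SMC1 list of that genotype.

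At regions found only in the double deletion, SMC1 was also found in the double deletion more often than at regions of the other single-genotype classes. The share of 5.16% stood against 3.26% at wild-type-only regions, a difference of 1.90 percentage points (95% Newcombe interval 0.718 to 2.97). It stood against 3.54% at ΔWAPL-only regions, a difference of 1.62 points (0.610 to 2.60), and against 2.73% at ΔSCC4-only regions, a difference of 2.44 points (0.590 to 3.74). SMC1 peaks of ΔWAPL cells showed the opposite order for these regions and the ΔWAPL-only regions, since they lay at 7.91% of the double-deletion regions and at 15.8% of the ΔWAPL-only regions, a difference of -7.92 points (-9.56 to -6.32). SMC1 of ΔSCC4 cells lay at 1.82% of ΔSCC4-only regions and 0.734% of these. SMC1 of wild-type cells lay at 1.85% of wild-type-only regions and 1.07% of these, but at 2.55% of ΔSCC4-only regions. A higher share in the SMC1 library of the own genotype was thus not particular to the double deletion.

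The SMC1 peaks at these regions divided by their distance from genes. Of the 657 regions within 1 kb of a transcript start, 178 held SMC1 in ΔWAPL cells (27.1%) and 71 in ΔWAPL/ΔSCC4 cells (10.8%), against 65.3% and 50.1% of all CTCF regions near a start. Of the 3159 distal regions, 124 held it in ΔWAPL cells (3.93%) and 126 in ΔWAPL/ΔSCC4 cells (3.99%), against 49.8% and 45.6% of all distal CTCF regions. At distal regions, 19 held SMC1 in both genotypes, or 15.3% of those with SMC1 in ΔWAPL cells and 15.1% of those with SMC1 in the double deletion. Over all distal CTCF regions these shares were 80.1% and 87.4%. They were 8.99% and 52.2% at distal ΔWAPL-only regions, and 10.3% and 37.5% at distal wild-type-only regions. At distal ΔSCC4-only regions they were 21.4% and 37.5%. Both values of 37.5% rested on 8 regions. A low first share was thus common to the single-genotype classes, and the second was lowest at the double-deletion regions. Near starts, 49 regions held SMC1 in both genotypes, or 27.5% and 69.0%, against 72.1% and 93.9% of all CTCF regions near starts. There the shares were 29.6% and 96.0% at ΔWAPL-only regions and 35.2% and 84.4% at wild-type-only regions. They were 35.0% and 100% at ΔSCC4-only regions, the latter of 7 regions.

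The classes were also compared on each side of this distance. Near starts, SMC1 of the double deletion was found at 10.8% of these regions and at 10.8% of ΔWAPL-only regions, with an interval of the difference from -3.81 to 3.63 points. The difference from wild-type-only regions was -0.443 points (-4.53 to 3.33) and that from ΔSCC4-only regions 4.77 points (-1.51 to 8.81). Away from starts the shares were 3.99% and 2.05%, a difference of 1.94 points (1.02 to 2.84), and 3.99% against 0.654% at wild-type-only regions, a difference of 3.34 points (2.44 to 4.14). The difference from distal ΔSCC4-only regions was 2.15 points (0.285 to 3.32). Whether the differences near starts and away from them were unlike was not tested. Among distal regions with a CTCF motif match, 5.03% of 1570 regions held SMC1 in the double deletion, against 2.19% of such ΔWAPL-only regions (difference 2.85 points, 1.47 to 4.22).

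**Figure D2:**
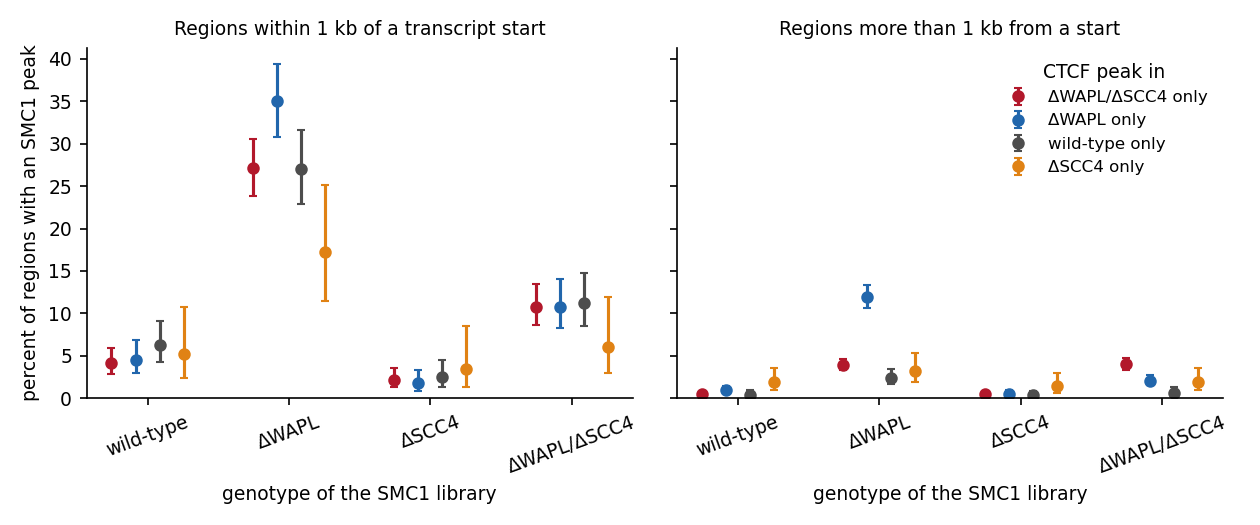
Percent of CTCF regions with an SMC1 peak (vertical axis) in each genotype (horizontal axis), near transcript starts (left) and away from them (right), for the 4 classes of region found in a single genotype. Points are shares and bars 95% Wilson intervals. Away from starts, regions found only in ΔWAPL/ΔSCC4 cells hold SMC1 of that genotype in 3.99% of cases, the highest of the 4 classes, and ΔWAPL-only regions hold SMC1 of ΔWAPL cells in 11.9%.

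With increasing CTCF strength, SMC1 of the double deletion became more frequent. When the regions were sorted by −log10 q into 5 groups of equal size, the weakest 764 held it in 2.75% of cases (1.80 to 4.17) and the strongest 763 in 10.9% (8.86 to 13.3). SMC1 of ΔWAPL cells went from 7.07% (5.46 to 9.11) to 9.17% (7.33 to 11.4), and these intervals overlap. Regions with a motif match held SMC1 of the double deletion more often than those without one (6.37% against 3.97%, difference 2.40 points, 0.994 to 3.82), and SMC1 of ΔWAPL cells likewise (9.05% against 6.79%, difference 2.26 points, 0.546 to 3.98).

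Single regions illustrate both patterns. The strongest region lay in a coding exon of SH3TC1, 4520 bp from the nearest start, with a CTCF fold enrichment of 12.1 and a pileup of 43 reads, and it held an SMC1 peak of 5.93-fold in ΔWAPL/ΔSCC4 cells and none in the other 3 genotypes. The same held for the next in rank, the intergenic region at chr12:130770559-130770919 with 11.9-fold CTCF and 6.95-fold SMC1 enrichment. At the chromosome 20 region CTCF was enriched 12.7-fold and SMC1 4.71-fold, again in the double deletion alone. The region in MIR548XHG, a long non-coding host gene of a microRNA, had 11.7-fold CTCF and 5.94-fold SMC1 enrichment. Thus the 4 strongest regions held SMC1 in the double deletion and in no other genotype. The region on chromosome 17 (11.3-fold CTCF) held no SMC1 peak in any genotype.

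At all 68 regions where SMC1 of the double deletion was shared with another genotype, ΔWAPL cells held it too. Of these, 3 strong regions are described here. Their sequences are shown because they are places at which cohesin was called in both WAPL deletions and CTCF in the double deletion alone.
chr10:114975866-114976171, intergenic, match on the minus strand: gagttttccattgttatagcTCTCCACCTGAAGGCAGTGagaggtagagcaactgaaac
chr7:3762149-3762511, intron of SDK1, no match: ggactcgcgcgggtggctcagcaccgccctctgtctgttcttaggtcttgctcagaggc
chr1:68786788-68787124, intergenic, match on the minus strand: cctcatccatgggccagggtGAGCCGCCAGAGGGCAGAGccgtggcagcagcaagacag
The first, 55026 bp from the nearest start, that of TCF7L2, a transcription factor of the Wnt pathway, had a CTCF fold enrichment of 9.34 and SMC1 fold enrichments of 4.87 in ΔWAPL cells and 4.49 in the double deletion. In SDK1, which encodes a neuronal cell adhesion protein, CTCF was enriched 8.65-fold and SMC1 5.01-fold and 5.87-fold in the same order. The best motif score of the SDK1 region was 5.79 bits, just under the limit for a match. Its call as a region with no match is therefore a close one, like that of the chromosome 21 region. The chromosome 1 region had 8.08-fold CTCF enrichment and SMC1 enrichments of 6.76 and 5.96. None of these 3 regions held an SMC1 peak in wild-type or ΔSCC4 cells.

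Next, the DNA under the summits was examined, which the choice of regions had not used. A CTCF motif match within 50 bp of the summit was found in 1901 of the 3816 regions (49.8%, 48.2 to 51.4), against 3.96% of windows 1000 bp downstream of the same summits and 76.5% of all CTCF regions. The share was 86.7% at constant regions of the even-numbered chromosomes, which had not been used to learn the motif. Among the single-genotype classes it was 55.3% at ΔWAPL-only regions (difference -5.48 points, -7.93 to -3.02), 40.4% at wild-type-only regions (difference 9.42 points, 6.54 to 12.3) and 36.7% at ΔSCC4-only regions (difference 13.1 points, 8.69 to 17.3). The classes found only in ΔWAPL and only in ΔWAPL/ΔSCC4 cells had the higher shares. The median CTCF −log10 q was 4.79 in the double-deletion class and 4.97 in the wild-type-only class. It was 6.06 in the ΔWAPL-only class and 5.27 in the ΔSCC4-only class. The part of strength in the differences in motif share was not tested.

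The motif share followed the strength of the peak. It was 31.8% in the weakest of the 5 groups (28.6 to 35.2), 51.2% in the middle group (47.7 to 54.8) and 64.6% in the strongest (61.2 to 67.9), whereas the share 1000 bp downstream stayed between 3.15% and 4.85%. Regions that would have passed every other list by a ratio of at least 1.5 matched in 58.9% of cases (56.5 to 61.2), the others in 42.5% (40.4 to 44.6). The matches themselves were weaker than those of constant regions, with a median score of 11.1 bits (quartiles 8.83 and 13.7) against 14.9 bits, and close to those of ΔWAPL-only regions at 10.9 bits.

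**Figure D3:**
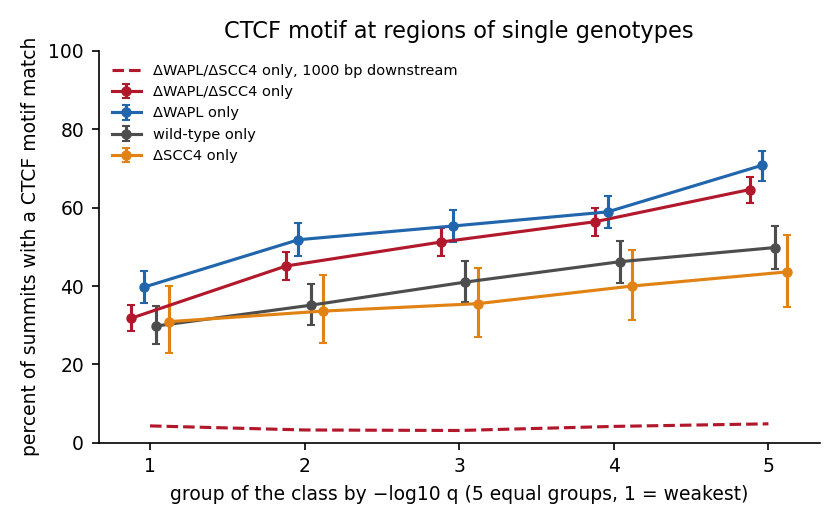
Percent of summits with a CTCF motif match within 50 bp (vertical axis) in 5 groups of each single-genotype class by −log10 q (horizontal axis, 1 is the weakest). Points are shares, bars 95% Wilson intervals, and the dashed line windows 1000 bp downstream of the regions found only in ΔWAPL/ΔSCC4 cells. The share rises from 31.8% to 64.6% in that class, while the dashed line stays under 5%.

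The matches were less tightly centred than at constant regions. Of the 1901 matches, 1110 (58.4%) had their centre within 20 bp of the summit, and the median distance was 17 bp, against 13 bp at constant regions and 16 bp at ΔWAPL-only regions. Matches fell on the plus strand in 53.0% of cases (50.8 to 55.3), against 50.1% at constant regions.

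**Figure D4:**
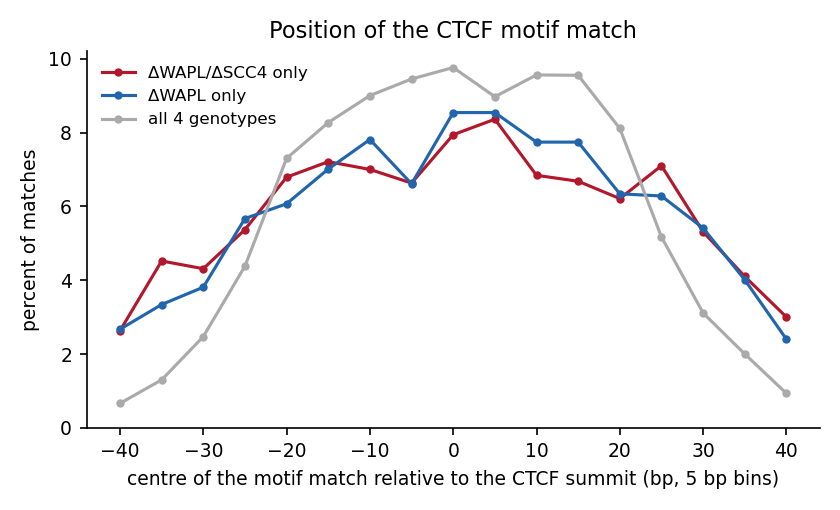
Position of the centre of the CTCF motif match relative to the summit (horizontal axis, in bp, in bins of 5 bp) as a percent of the matches of each class (vertical axis). The matches of regions found only in ΔWAPL/ΔSCC4 cells reach 8.36% in the bin at 5 bp, against 9.76% of the matches of constant regions in the central bin, and have more matches near the edges of the window.

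The share of motif matches with a CpG was close to that of all CTCF regions and above that of ΔWAPL-only regions, the lowest of the classes. A CpG lay within the 19 matching bases in 721 of 1901 matches (37.9%, 35.8 to 40.1), against 39.7% over all CTCF regions and 27.3% at ΔWAPL-only regions, a difference of 10.6 points (7.46 to 13.7). At wild-type-only regions the share was 44.4%, at ΔSCC4-only regions 38.6%, and at constant regions 41.2%. Counting motif positions from 1 at the 5′ end, a CpG at position 5 was present in 11.2% of the matches against 5.94% of the ΔWAPL-only matches and 9.83% of the constant ones, and a CpG at position 15 in 20.3% against 14.1% and 28.7%. Within 1 kb of a start, 72.2% of the matches held a CpG, and farther away 30.7% did. The difference from ΔWAPL-only regions was present near starts (72.2% against 58.6%, difference 13.7 points, 5.96 to 21.2). It was also present among distal matches (30.7% against 20.6%, difference 10.1 points, 6.81 to 13.2). There the GC content within 50 bp of the summit moved with it, with a median of 51.5% against 47.5%, and its part in the CpG difference was not tested. DNA methylation was not analysed here.

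Short motifs of other factors, searched as fixed letters on both strands within 50 bp of the summit, were present in few of the regions. The most frequent was the short CCAAT box CCAAT, in 10.9% of the regions against 13.1% downstream and 11.7% of all CTCF regions, and the GATA motif AGATAA was present in 4.22%, against 6.45% downstream. The GC box GGGCGG was present in 6.24% of the regions (5.51 to 7.05) against 2.52% of the windows 1000 bp downstream and 7.11% of all CTCF regions. The AP-1 motif TGANTCA occurred in 3.09% of the regions against 3.04% downstream. Letters of the YY1 motif, CAAGATGGC, were present in 13 regions (0.341%), against 0.745% of all CTCF regions. Among the 1915 regions without a CTCF match, 4.60% held the GC box (3.74 to 5.63), 3.34% the AP-1 motif, 0.104% the YY1 letters and 11.6% the CCAAT box. The E-box CACGTG was present in 1.47% of the regions, and the CRE, ETS and NRF1 letters in 4, 5 and 2 regions. Fixed letters of the CTCF motif, CNAGGNGGC, which overlap the learned one, were present in 7.99% of the regions and 13.6% of all CTCF regions.

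The 4 strongest regions with no CTCF match began with the one in MIR548XHG. The second lay at chr22:27769212-27769538 in an intron of a long non-coding gene (ENSG00000230051), with a CTCF fold enrichment of 10.6, an SMC1 peak of 6.48-fold in the double deletion alone and a best motif score of -2.99 bits. The third, at chr6:64061942-64062225, was intergenic and rich in A and T (GC content 31.7%), with 9.29-fold CTCF enrichment and no SMC1 peak, and it lay 715 bp from a CTCF peak of another genotype. The fourth, at chr12:20046526-20046832, had 9.68-fold CTCF enrichment and a 4.83-fold SMC1 peak in the double deletion alone. The sequences around the second and the third summit are given on the plus strand to show how unlike the motif they are.
chr22:27769212-27769538: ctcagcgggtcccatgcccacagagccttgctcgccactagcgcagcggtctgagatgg
chr6:64061942-64062225: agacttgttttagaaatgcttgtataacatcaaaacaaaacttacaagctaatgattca

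In exons, introns and intergenic DNA, the shares of the regions were close to those of CTCF regions at large, but they lay somewhat less often near transcript starts. A summit lay within 1 kb of a transcript start in 657 regions (17.2%, 16.1 to 18.4), against 19.5% of all CTCF regions, 17.1% of ΔWAPL-only regions (difference 0.126 points, -1.74 to 1.97) and 24.6% of wild-type-only regions (difference -7.41 points, -9.86 to -5.04). Within 5 kb of a start the share was 37.1% (35.5 to 38.6), against 42.1% of all CTCF regions. Summits in exons numbered 432 (11.3%, against 12% of all CTCF regions), of which 148 were in coding exons, 144 in UTRs and 140 in non-coding exons. Introns held 53.5% of the regions and intergenic DNA 35.2%, against 52.4% and 35.6% of all CTCF regions. Peaks of the IgG libraries overlapped 14 regions (0.367%), against 0.888% of all CTCF regions.

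The regions lay farther from constant CTCF sites than ΔWAPL-only regions did. The median distance to the nearest constant summit was 29.1 kb (quartiles 12.5 and 67.2), against 13.8 kb for ΔWAPL-only regions and 30.4 kb for wild-type-only regions. Within 10 kb of a constant summit lay 758 regions (19.9%), against 41.9% of ΔWAPL-only regions, a difference of -22.0 points (-24.3 to -19.8), and 18.3% of wild-type-only regions, a difference of 1.58 points (-0.736 to 3.80). At ΔSCC4-only regions the share was 26.5%, a difference of -6.68 points (-10.7 to -2.93). Within 2 kb the shares were 3.96% for these regions, 11.1% for ΔWAPL-only and 10.0% for ΔSCC4-only regions.

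The regions were spread over 24 chromosomes, with a median of 474 kb between neighbours, and 12 pairs of neighbours lay within 1 kb of each other. Among the autosomes and X, their share of the CTCF regions ran from 5.17% on chromosome 17 (4.31 to 6.19) to 8.82% on chromosome 21 (6.77 to 11.4). Chromosomes 10 (8.61%, 7.56 to 9.78) and 13 (8.72%, 7.36 to 10.3) were above the 7.07% of the whole genome, and chromosomes 12, 16, 17 and 19 had the lowest shares. Within 10 Mb of a chromosome end lay 18.2% of the regions, against 16.6% of all CTCF regions and 13.5% of ΔWAPL-only regions (difference 4.69 points, 2.90 to 6.46).

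**Figure D5:**
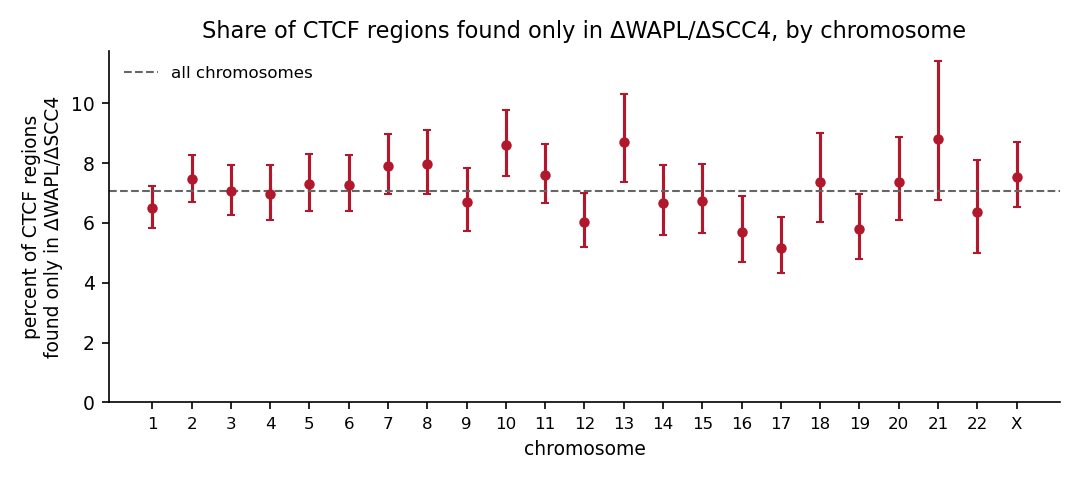
Regions found only in ΔWAPL/ΔSCC4 cells as a percent of all CTCF regions (vertical axis) on each autosome and X (horizontal axis), with 95% Wilson intervals, and the 7.07% of all chromosomes as a dashed line. Chromosome 17 has the lowest share at 5.17% and chromosome 21 the highest at 8.82%.

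Near transcript starts, the strongest region lay in KRT8, which encodes a keratin of simple epithelia, 133 bp from a start (chr12:53298848-53299120), with 10.3-fold CTCF enrichment, a motif match and no SMC1 peak. In a coding exon of PIK3R5, a regulatory subunit of a phosphoinositide 3-kinase, the region at chr17:8791846-8792188 had 9.19-fold CTCF enrichment, no match and a 5.74-fold SMC1 peak in the double deletion alone. The region in LY6G6D, 861 bp from a start of MPIG6B, had the same CTCF value and no SMC1 peak. The fourth differed from these. It lay in a UTR of C7orf31, 53 bp from a start (chr7:25219485-25219750), with a CTCF fold enrichment of 6.25 and an SMC1 peak in ΔWAPL cells alone, of 13.4-fold. A CTCF peak of another genotype lay 116 bp from that region, so its call as a region of the double deletion rests on where the intervals end.

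The regions were spread over many genes. Among protein-coding genes, 1528 held 1 of the regions, 184 held 2, 31 held 3, 6 held 4, 3 held 5, 1 held 6 and 1 held 7. The same counts for all CTCF regions are not given here, so these numbers do not show whether the regions were more or less clustered in genes. The 6 genes with the most were between 952 and 2305 kb long. SDK1, with a length of 968 kb, held 7 of the regions among its 19 CTCF regions, 2 of them with a motif match and 2 with an SMC1 peak. PTPRN2, which encodes a receptor-type protein tyrosine phosphatase of secretory granules, held 6 among 15, 5 of them with a match and none with SMC1. CNTNAP2 held 5 among 26, GPC5 5 among 20, NTM 5 among 21 and CACNA2D3 4 among 22, and none of the GPC5 regions matched the motif. These genes were picked for their counts, so shares above the 7.07% of all CTCF regions are partly set by that choice, and no test was made.

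In lists of genes fixed for other reasons, the regions were counted beside all CTCF regions at the same genes. Of 61 CTCF regions at 25 genes of cohesin subunits and regulators, 3 were found only in the double deletion (4.92%, 1.69 to 13.5, against 7.07% of all CTCF regions). They lay in introns of RAD21L1, which encodes a meiotic kleisin (4.05-fold), and of STAG1, a subunit of cohesin (6.31-fold), and within 5 kb of SGO1, a protector of centromeric cohesin (5.72-fold). The RAD21L1 region lay 34 bp from a start of another gene, SNPH. Each of the 3 regions had a motif match and no SMC1 peak. The clustered protocadherins, whose promoters are chosen through CTCF sites, held 2 of 49 (4.08%, 1.13 to 13.7), one 120 bp from a start of PCDHB16 (5.26-fold, no match) and the other 70 bp from a start of PCDHGB7 (4.02-fold, with a match). The HOX clusters held 0 of 28, for which the Wilson interval ran up to 12.1%, and 3 counts, the limit that a count of 0 allows, would be 10.7%. Zinc-finger genes held 36 of 489 (7.36%, 5.36 to 10.0) and cytosolic ribosomal protein genes 4 of 110 (3.64%, 1.42 to 8.98). Each interval included the share over all CTCF regions.

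Both limits of the rule held regions that could have been counted otherwise. The 3 weakest regions, at chr5:36363171-36363410, chr6:85580432-85580610 and chrX:6410117-6410288, each had a pileup of 6 reads over a background of 1.22, a −log10 q of 1.31, no motif match and no SMC1 peak. Scaled to depth, their lowest ratio was 0.861. The 3 regions nearest to a CTCF peak of another genotype lay 9, 26 and 26 bp from it, at chr20:43478621-43478814, at chr22:43010496-43010760 close to a start of POLDIP3, and at chr6:148855100-148855348 in SASH1. Just outside the rule, 3 peaks of the double deletion with fold enrichments of 4.63, 4.55 and 3.60 overlapped a peak of another genotype by 6, 12 and 21 bp. Another CTCF peak lay within 500 bp of 104 of the regions (2.73%).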

How the data were processed

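The 12 libraries (CTCF, SMC1 and IgG in 4 genotypes, 1 each) were grouped by the genotype and antibody of their titles. According to the methods and labels, the authors mapped reads to hg19 with Bowtie2, called peaks per library with MACS2 (2.1.1) and used IgG as control. The deposited fold enrichment is a ratio of pileup to local background, each with 1 read added, and a p-value and a q-value were deposited as −log10 values. The calling threshold is not given in the sources used here. Depth is also not given, and was recovered: the whole-number pileup and the background solving the fold enrichment and the −log10 p (within 0.002) were found for each peak, uniquely for at least 99.7% in every list, and the lowest background per interval length gave reads per kb. Recovered backgrounds were whole numbers of reads (within 0.02) in 10 kb scaled to the interval length, so no scaling by the IgG library was visible in them.

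Intervals were merged and compared by an overlap of at least 1 bp. A CTCF motif with 19 positions was derived from the 1000 strongest constant regions of odd-numbered chromosomes. A match was a score above that of the best site in 95% of windows 1000 bp downstream of constant summits on even-numbered chromosomes (15816 windows), searched 50 bp on each side of a summit. Genes were taken from GENCODE (44) on GRCh37. Shares have Wilson and differences Newcombe intervals (95%). Python (3.11.15), numpy (2.4.6), pandas (2.3.3), scipy (1.17.1) and pysam (0.24.0) were used. The functions were tested on simulated data.

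The regions, gene lists and comparisons were chosen with earlier results of these data known. Named regions, on chromosomes other than 8, Y and M and without an IgG peak, were the 6 of highest −log10 q, the 4 highest with SMC1 in the double deletion alone, with SMC1 there and elsewhere, near a start, and with no match, the 3 weakest, the 3 closest to another peak, and up to 6 genes with the most regions. Of these, 2 regions are not reported here. Alternatives were stricter peak thresholds, other merging, removal of IgG peaks, an equal genome-wide average of reads per kb, and other motif, SMC1 and gene definitions.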

Additional observations from a re-analysis of the deposited data

How the results depend on the processing

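Of 76 alternatives to the values of the report, 39 stayed within the counting interval (for the number of regions, within 1.5 times) and 37 moved outside it. Of the 76, 8 were differences from the ΔWAPL-only class, and 0 of these changed direction. Differences from the other classes were not varied. As given above, the order of the SMC1 shares in ΔWAPL cells and in the double deletion did turn, with intervals that overlap. That was among regions with a −log10 q of at least 10 in the double deletion, and it is not counted among these differences. Requiring a −log10 q of at least 5 in all 4 CTCF lists gave 8.09% of regions with SMC1 in the double deletion, 10.7% in ΔWAPL cells and 58.2% with a motif match. At a −log10 q of at least 10 there were 1706 regions, with 20.5%, 20.8% and 68.9%, and 19.6% near a start. A threshold in all lists adds regions whose weaker peaks elsewhere were removed. A fold enrichment of at least 5 gave 2432 regions, with 8.47%, 10.4% and 58.9%. With the threshold in the double deletion alone, 1850 regions at 5 gave 7.30%, 9.24% and 58.8%, and 253 regions at 10 gave 17.8%, 11.9% and 68.4%, with 12.3% near a start and 8.70% in exons. Pileups scaled to the same genome-wide average of reads per kb (signal over background was not equalised), at a −log10 p of at least 8, gave 2455 regions, with 11.6%, 13.8% and 62.4%.

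SMC1 peaks with a −log10 q of at least 5 lay at 3.09%. The motif share was 55.0% within 100 bp of the summit, 29.6% at the score that 1% of flanking windows reach, and 7.99% with fixed letters. Within 5 kb of a start lay 37.1%, and with protein-coding genes alone 13.4% were near a start and 8.73% in exons. The difference from ΔWAPL-only regions in nearness to constant regions was -7.12 points within 2 kb, -24.4 at a −log10 q of at least 5 and -24.6 among summits with a match, and the difference in distal SMC1 was 3.91 points at a −log10 q of at least 5. These last comparisons, those of CpG and the SMC1 share of ΔWAPL cells were added after the data were seen. No paired analysis was possible because each group held 1 library. For the same reason no replicate could be left out, and the cause of the moves was not tested.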
